A study of Mus musculus with 10 samples.

Results

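Autophagy wraps cytoplasm and worn organelles in a double membrane and delivers them to the lysosome, and mitophagy is its selective form for mitochondria. A kinase complex around ULK1 starts the process, a lipid kinase complex around Beclin 1 marks the membrane, ATG9A and the ATG2 proteins bring in lipid, and ubiquitin-like reactions fix LC3 and GABARAP proteins on the growing membrane. Receptors such as p62 and BNIP3 hold the cargo and bind LC3 or GABARAP at the same time. In the epidermis, keratinocytes lose their mitochondria and nuclei as they become cornified cells, and BNIP3 has been linked to the removal of mitochondria in that process.

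The 35 genes described here cover these steps from the ULK1 complex to the mitophagy receptors and the transcription factor gene Tfeb. The rule that names them is their function, with no threshold on their values. The 35 were chosen with earlier results of these data known. Each was read from its brightest probe set among those annotated to that gene alone, which gave values for 34 of the 35. The exception was Bnip3l, encoding the receptor NIX, whose probe sets are annotated to a Bnip3l pseudogene as well, so no value is given for it. The 34 are part of 18193 genes measured in the same way.

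The cells were primary keratinocytes from the skin of Sgpp1+/+ mice (WT) and Sgpp1-/- mice (KO), 5 arrays each, with no other allele or agent named in the labels. Sgpp1 encodes an enzyme of sphingolipid turnover that dephosphorylates sphingosine-1-phosphate. Culture lasted 3 to 4 days in both groups, at 0.05 mM calcium with 8% serum, a low calcium level that normally keeps mouse keratinocytes basal and dividing. The labels number the arrays WT 1 to WT 5 and KO 8, 9, 10, 21 and 23, name no animal or culture for each, and do not say how many mice were used. Every p-value below therefore reflects the spread among these arrays, which may be technical.

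The targeted gene did not separate the groups in the direction of the labels. Its brightest probe set averaged 7.67 (SD 0.84) over the 5 WT arrays and 8.82 (SD 0.24) over the 5 KO arrays on the log2 scale, with no WT array above 8.33 and no KO array below 8.46. Which part of Sgpp1 was disrupted is not given in the sources used here, and probes elsewhere in the gene cannot test the labels. WT and KO therefore stand for the arrays so labelled, and every direction rests on those labels. Array medians lay between 5.02 and 5.17, and arrays correlated at 0.943 to 0.990 over all probe sets. WT 1 stood farthest from the others, with a mean correlation of 0.955. Basal keratinocyte transcripts were abundant on every array (Krt5 at 12.78 ± 0.06 in WT and 12.73 ± 0.10 in KO, log2, n = 5 each). Of the endothelial markers 3 of 3 averaged below the array median, the brightest being Pecam1 at 4.83. Of the myeloid markers 4 of 5 did. The brightest, Lyz2, averaged 8.92 and reached 10.50 on WT 5 and 10.48 on KO 23. Fibroblast markers ranged widely. Their signals, summed before taking log2, ran from 9.37 to 13.63 in WT and from 9.47 to 12.10 in KO. Those of the melanocyte markers ran from 9.40 to 12.92 and from 11.15 to 12.92. The part of these cell types in the results below was not tested. In RNA from whole cultures, fewer cells of a type and less RNA per cell cannot be told apart.

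No autophagy or mitophagy gene passed the test between the genotypes, while most of them read somewhat higher in KO. At a threshold of 0.05 on limma p-values adjusted by Benjamini-Hochberg across the 18193 genes, 0 of the 34 were called higher and 0 lower, against 2.30% of all genes called higher and 0.346% called lower. The smallest adjusted p was 0.0823, for Gabarapl2. At an unadjusted limma p under 0.05, 14 of 34 (41.2%) were higher and 0 were lower, against 7.33% and 5.65% of all genes. The 14 became 8 without KO 10 (6.27% of all genes), 9 without KO 9 (5.97%) and 1 with the array number of the sample titles as a covariate (3.61%). The difference was positive in 29 of 34 (85.3%), against 47.6% of all genes, and its median was 0.29 against -0.01 on the log2 scale. The autophagy genes were brighter than most, with a median level of 7.30 against 5.71. Among the 8440 genes with a mean log2 signal of at least 6, 48.3% were positive, 11.6% had an unadjusted p under 0.05 in the higher direction, and the median difference was -0.01. In 4 of 34 genes (11.8%) all 5 KO values lay above all 5 WT values, against 3.36% of all genes and 5.60% of those with a mean of at least 6, and in 0 did they all lie below, against 1.02%. These 4 were Ulk1, Atg13, Atg2a and Atg7.

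The 0 calls depended on which arrays were used. Without WT 1, Atg13 was called (limma adjusted p = 0.0486), and without WT 2, Gabarapl2 was called (0.0385). Of all genes, 2.30% and 2.15% were called higher in these fits. Leaving out each of the other 8 arrays gave 0 calls. When limma weighted the arrays by quality, 6 of the 34 were called higher (Atg13, Gabarapl2, Atg2a, Atg4d, Atg9a and Map1lc3b, adjusted p from 0.00456 to 0.0490). With these weights 4.82% of all genes were called higher, against 2.30% without them. The median difference of the 34 genes was 0.20 without WT 1 and 0.20 without KO 23, and between 0.27 and 0.32 without any other single array. The sample titles count the arrays from 1 to 10 with all WT arrays first, so that any effect of this order and the genotype cannot be told apart. With that number as a covariate the median difference was 0.17 and 21 of 34 were positive.

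**Figure D1:**
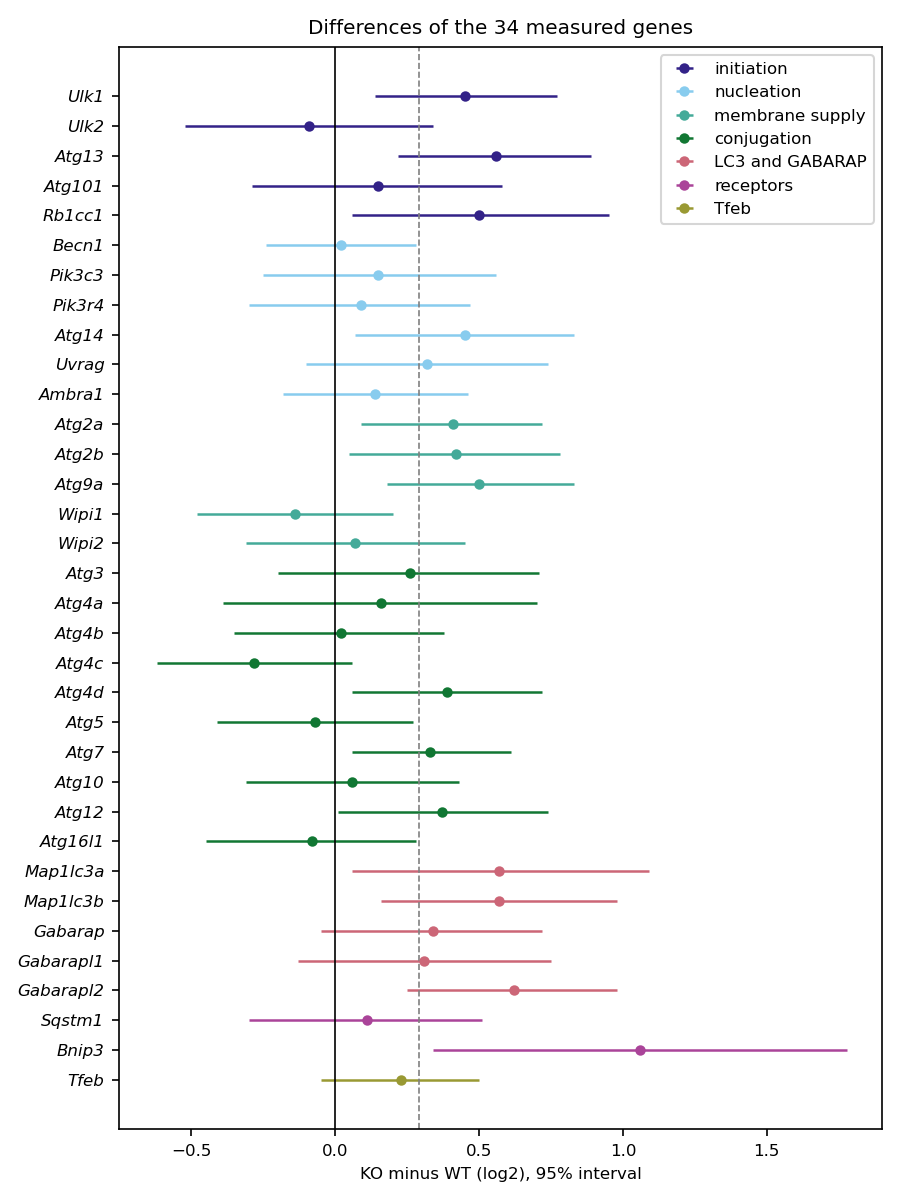
Difference KO minus WT (log2, horizontal axis) of each of the 34 measured autophagy genes, with its 95% limma interval, coloured by step of the pathway. The dashed line is the median of 0.29. 14 intervals lie wholly above 0 and 0 wholly below it, and Bnip3 has both the largest difference, 1.06, and the widest interval.

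Promoter letters were read to show which of these genes carry the E-box CACGTG, the core of the site that TFEB and its relatives bind in autophagy and lysosome genes. RefSeq promoter windows on GRCm38.p6 were found for 28 of the 35 genes, and the 250 bases before each start site were searched on both strands. CACGTG was present in 4 of these 28 (14.3%), against 6.9% of 27025 genes with a window. The 150 bases before the start site of these 4 are printed 5′ to 3′ on the strand of the gene, with the matches in capitals. For Atg3, Atg5 and Atg7 the capitals mark CACGTG. For Bnip3 they mark every ACGTG or GCGTG on either strand, the cores of the element bound by hypoxia-inducible factor, since BNIP3 is a well-known hypoxia target, and the middle match is also its CACGTG, which overlaps ACGTG on both strands. The windows lie at chr7:138909507-138909656 on the minus strand for Bnip3, and on the plus strand at chr16:45158679-45158828 for Atg3, chr10:44268189-44268338 for Atg5 and chr6:114670946-114671095 for Atg7.
Bnip3: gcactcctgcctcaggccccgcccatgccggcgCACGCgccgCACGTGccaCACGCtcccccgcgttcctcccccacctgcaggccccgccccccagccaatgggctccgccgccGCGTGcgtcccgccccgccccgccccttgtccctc
Atg3: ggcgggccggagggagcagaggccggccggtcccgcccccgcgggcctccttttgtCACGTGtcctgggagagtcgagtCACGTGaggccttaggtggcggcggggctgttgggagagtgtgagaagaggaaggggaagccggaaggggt
Atg5: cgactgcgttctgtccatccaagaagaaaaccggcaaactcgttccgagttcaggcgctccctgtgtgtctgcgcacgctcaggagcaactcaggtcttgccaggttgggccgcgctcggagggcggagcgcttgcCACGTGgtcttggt
Atg7: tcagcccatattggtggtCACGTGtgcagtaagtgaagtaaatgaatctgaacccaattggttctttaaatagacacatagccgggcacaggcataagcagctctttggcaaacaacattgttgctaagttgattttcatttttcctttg

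Atg3 held 2 copies, at positions -94 and -71 from the start site, and the second is part of the longer form TCACGTGA, which 0.9% of all genes with a window hold. The copy in Atg7 lies at -132, that in Atg5 at -14 and that in Bnip3 at -108. The differences of these 4 genes between KO and WT were 1.06 for Bnip3, 0.33 for Atg7, 0.26 for Atg3 and -0.07 for Atg5 (log2), none of them past the threshold. The hypoxia cores were common: ACGTG was in the windows of 42.9% of the 28 genes and GCGTG in 64.3%. Of all genes with a window, 18.5% and 30.9% held them. Those genes were not matched to the 28 in signal or base content. Bnip3 had GCGTG matches at -117, -99 and -35 and ACGTG matches at -108 and -107. These cores were not particular to Bnip3. Map1lc3b had GCGTG matches at -183, -154, -96, -91 and -64. Atg5 had one at -76, left in small letters above, and every CACGTG also holds ACGTG. A match of letters is a description of the window and not evidence of binding.

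The initiation complex phosphorylates the next set of autophagy proteins when nutrients run low. Ulk1, encoding its kinase, read 7.82, 7.96, 8.01, 8.02 and 7.42 on WT 1 to WT 5 and 8.25, 8.31, 8.49, 8.28 and 8.17 on KO 8, 9, 10, 21 and 23 (log2 signal). Every KO array lay above every WT array, with WT 5 the lowest of all. The difference was 0.45 (SE 0.14), or 1.37-fold, with a limma adjusted p of 0.153. Its second probe set, dimmer, differed by 0.23 (SE 0.20). Atg13, encoding the adaptor that joins the kinase to the rest of the complex, read 7.59, 7.62, 7.10, 7.25 and 6.98 on WT 1 to WT 5. On the KO arrays in the same order as before it read 7.73, 7.99, 8.02, 7.75 and 7.84. The groups did not overlap, although WT 1 and WT 2 came close to KO 8, the lowest KO array. The Atg13 difference was 0.56 (SE 0.15), 1.47-fold, with a limma adjusted p of 0.0896, and the other 2 Atg13 probe sets differed by 0.54 and 0.80. With the mean of the 3 probe sets standing for the gene, Atg13 was called (difference 0.64, limma adjusted p = 0.0182). Rb1cc1, encoding the scaffold FIP200, differed by 0.50 (SE 0.20, limma adjusted p = 0.295) and its next brightest probe set by 0.67. Without WT 1 the Rb1cc1 difference was 0.32. Atg101, encoding the partner that stabilises ATG13, differed by 0.15 (95% interval -0.29 to 0.58). Ulk2, the second kinase gene, was among the 5 with a negative value, at -0.09 (-0.52 to 0.34), and its other 3 probe sets ran from -0.24 to -0.12.

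The nucleation complex makes the lipid phosphatidylinositol 3-phosphate on the forming membrane. Differences here were small: the 6 genes had a median of 0.15, and 6 of 6 were positive. Becn1, encoding Beclin 1, read 8.62 ± 0.15 in WT and 8.65 ± 0.04 in KO (log2, mean ± SD, n = 5 each), a difference of 0.02 with a 95% interval of -0.24 to 0.28. The intervals of Pik3c3 (the lipid kinase itself, -0.25 to 0.56), Pik3r4 (its regulatory subunit, -0.30 to 0.47) and Ambra1 (a Beclin 1 regulator, -0.18 to 0.46) also held 0. Atg14, whose product directs the complex to autophagosomes, read between 5.42 and 5.86 in WT and between 5.56 and 6.42 in KO. The groups overlapped, and the difference was 0.45 (SE 0.18, limma adjusted p = 0.271). Uvrag, which encodes the alternative subunit used at endosomes, differed by 0.32 (-0.10 to 0.74), and by 0.14 without WT 1.

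Genes for lipid supply to the membrane were more uneven. Atg9a, encoding the lipid scramblase of the vesicles that seed the membrane, read 6.00, 6.43, 6.68, 6.23 and 6.34 on WT 1 to WT 5 and 6.78, 6.87, 6.97, 6.57 and 7.0 on the KO arrays. Only WT 3 reached the KO range, above KO 21. The difference was 0.50 (SE 0.15), 1.42-fold, with a limma adjusted p of 0.125. Atg2a and Atg2b encode lipid transfer proteins that fill the membrane. Atg2a lay between 6.02 and 6.38 in WT and between 6.44 and 6.99 in KO, with no overlap and a difference of 0.41 (SE 0.14, limma adjusted p = 0.210), and KO 10 was its highest array. Atg2b differed by 0.42 (SE 0.17, limma adjusted p = 0.289) and its next probe set by 0.61. Wipi1 and Wipi2 encode sensors of phosphatidylinositol 3-phosphate. Wipi1 differed by -0.14 (95% interval -0.48 to 0.20) and 4 of its 5 other probe sets were negative too, while Wipi2 differed by 0.07 (-0.31 to 0.45).

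The conjugation enzymes attach ATG12 to ATG5, and LC3 and GABARAP to lipid. The 10 genes had a median difference of 0.11, with 7 positive and 3 negative. Atg7, encoding the enzyme that activates both kinds of conjugation, lay between 6.47 and 6.83 in WT and between 6.83 and 7.16 in KO. Its groups met without overlapping, WT 2 being the highest WT array and KO 21 the lowest KO array. The difference was 0.33 (SE 0.13, limma adjusted p = 0.255), but 2 other Atg7 probe sets with means above 5 differed by 0.05 and 0.06. Atg12, the ubiquitin-like modifier, differed by 0.37 (SE 0.17, limma adjusted p = 0.361), and Atg4d, a protease that trims and recycles LC3 proteins, by 0.39 (SE 0.15, limma adjusted p = 0.275). The other protease genes differed by 0.16 for Atg4a, 0.02 for Atg4b and -0.28 for Atg4c, the most negative value of the 34, with a 95% interval of -0.62 to 0.06. Without WT 2 the Atg4c difference was -0.18. The other Atg4c probe set, dimmer, differed by 0.26, and with the mean of its probe sets the gene differed by -0.01. Atg3, encoding the enzyme that hands LC3 to lipid, differed by 0.26 (-0.20 to 0.71), but by 0.06 without WT 1, 0.17 without KO 23 and 0.02 with array weights. Atg10, encoding the enzyme that hands ATG12 to ATG5, differed by 0.06 (-0.31 to 0.43). Atg5 and Atg16l1, whose products form the complex that places LC3, differed by -0.07 (-0.41 to 0.27) and -0.08 (-0.45 to 0.28).

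The LC3 and GABARAP genes, which encode the proteins that mark autophagosomes and recruit cargo, were positive in 5 of 5, with a median difference of 0.57. Gabarapl2, whose product GATE-16 acts in late membrane growth and fusion, read 8.10, 8.38, 7.91, 7.58 and 7.88 on WT 1 to WT 5 and 8.77, 8.50, 8.80, 8.29 and 8.57 on the KO arrays. Only WT 2 entered the KO range, above KO 21. The difference was 0.62 (SE 0.17), or 1.53-fold, with the limma adjusted p of 0.0823 given above, while a dimmer probe set differed by 0.01. With the mean of its probe sets Gabarapl2 differed by 0.32 (limma adjusted p = 0.402). Map1lc3b, encoding LC3B, read 9.94, 10.74, 10.97, 10.67 and 10.53 in WT and 10.86, 11.31, 11.36, 10.98 and 11.19 in KO. WT 1 was the lowest by a clear gap and WT 3 exceeded KO 8. The Map1lc3b difference was 0.57 (SE 0.19, limma adjusted p = 0.174), and its 3 other probe sets differed by 0.51, 0.59 and 0.18.

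Map1lc3a, encoding LC3A, read 8.56, 9.01, 8.88, 8.25 and 7.97 in WT and 9.33, 9.29, 9.56, 8.60 and 8.74 in KO. KO 21 and KO 23 lay among the WT values and the other 3 KO arrays above all of them. The difference was 0.57 (SE 0.24, limma adjusted p = 0.312), and 0.61 on its second probe set. Gabarap, the founding gene of its family, read 9.57, 10.32, 10.39, 10.11 and 10.13 in WT and 10.29, 10.58, 10.65, 10.10 and 10.58 in KO. Gabarapl1, which encodes its closest relative, read 8.09, 9.01, 8.85, 8.40 and 8.41 in WT and 8.77, 8.98, 8.96, 8.40 and 9.23 in KO. WT 1 was the lowest array in both. KO 8 and KO 21 lay within the WT range for Gabarap, and every KO array but KO 23 did for Gabarapl1. Gabarap differed by 0.34 (95% interval -0.05 to 0.72) and Gabarapl1 by 0.31 (-0.13 to 0.75), and each by 0.20 without WT 1.

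**Figure D2:**
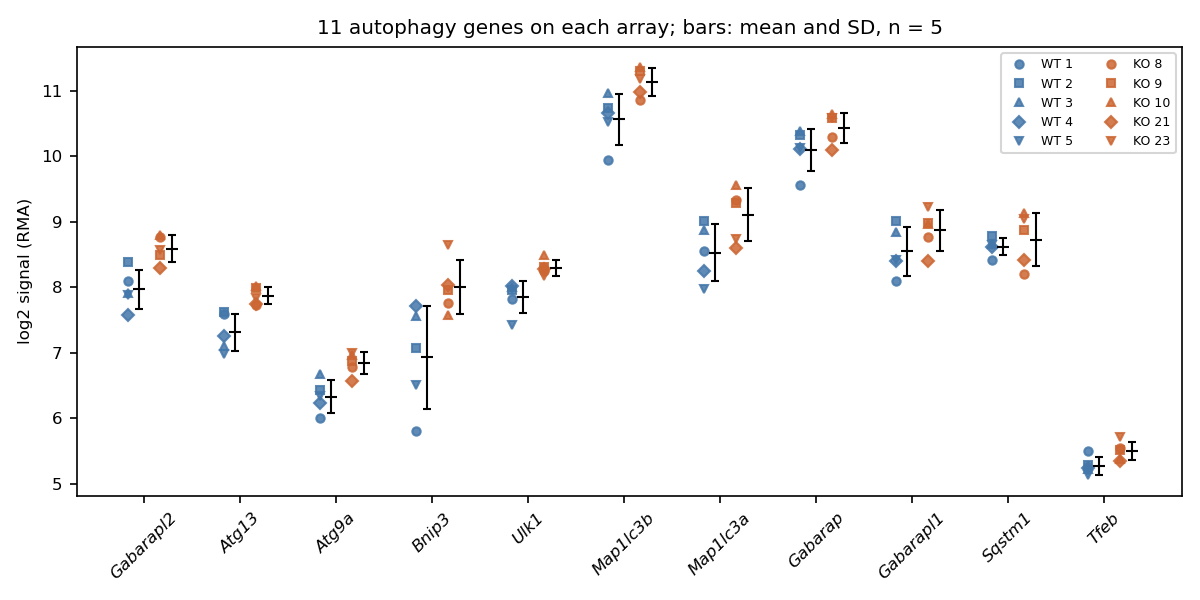
Log2 signal (vertical axis) of 11 autophagy genes on each array, 5 WT in blue and 5 KO in orange, with a marker shape for each array within its group and the mean and SD in black. Atg13 and Ulk1 are the 2 of the 11 whose groups do not overlap, and Bnip3 spans from 5.81 on WT 1 to 8.65 on KO 23.

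Bnip3 had the largest difference of the 34 and the largest spread. Its product sits in the outer mitochondrial membrane and binds LC3 and GABARAP proteins directly. Bnip3 read 5.81, 7.08, 7.56, 7.71 and 6.50 on WT 1 to WT 5 and 7.76, 7.96, 7.58, 8.03 and 8.65 on KO 8, 9, 10, 21 and 23 (log2 signal). WT 1 and WT 5 were far below the rest, WT 4 exceeded KO 10, and KO 23 was the highest. The difference was 1.06 (SE 0.33), or 2.09-fold, with a 95% interval of 0.34 to 1.78 and a limma adjusted p of 0.146. It was 0.78 without WT 1, 0.96 without WT 5 and 0.90 without KO 23, and 0.56 with limma's array weights, which gave WT 1 a weight of 0.23. Bnip3 has 1 probe set, so no second reading exists here.

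The other cargo receptor, Sqstm1, encodes p62, which ties ubiquitin-marked cargo to LC3 and is itself consumed by autophagy. It read 8.42, 8.78, 8.66, 8.61 and 8.65 in WT and 8.20, 8.88, 9.14, 8.41 and 9.04 in KO. The KO arrays lay on both sides of the WT range, with 2 below the WT median and 3 above the highest WT array. The difference was 0.11 (95% interval -0.30 to 0.51), and the SD was 0.41 in KO against 0.13 in WT. Tfeb, encoding a transcription factor that switches on lysosome and autophagy genes, read 5.50, 5.28, 5.22, 5.24 and 5.13 in WT and 5.54, 5.52, 5.38, 5.35 and 5.71 in KO. WT 1 lay within the KO range, and the difference was 0.23 (-0.05 to 0.50, limma adjusted p = 0.517).

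The arrays of a group did not act alike. Averaged over the 34 genes, the log2 signal relative to the mean of the 10 arrays was -0.30 on WT 1, 0.06 on WT 2, -0.04 on WT 3, -0.16 on WT 4 and -0.22 on WT 5. It was 0.09 on KO 8, 0.16 on KO 9, 0.21 on KO 10, -0.04 on KO 21 and 0.24 on KO 23. KO 21 therefore lay below WT 2 and level with WT 3. WT 1 was the lowest array in 12 of the 34 genes, WT 5 in 8 and KO 21 in 6, while KO 10 was the highest in 10, KO 23 in 8 and WT 2 in 6. Over the LC3 and GABARAP genes alone the values ran from -0.53 on WT 1 to 0.48 on KO 10, with KO 21 at -0.11.

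**Figure D3:**
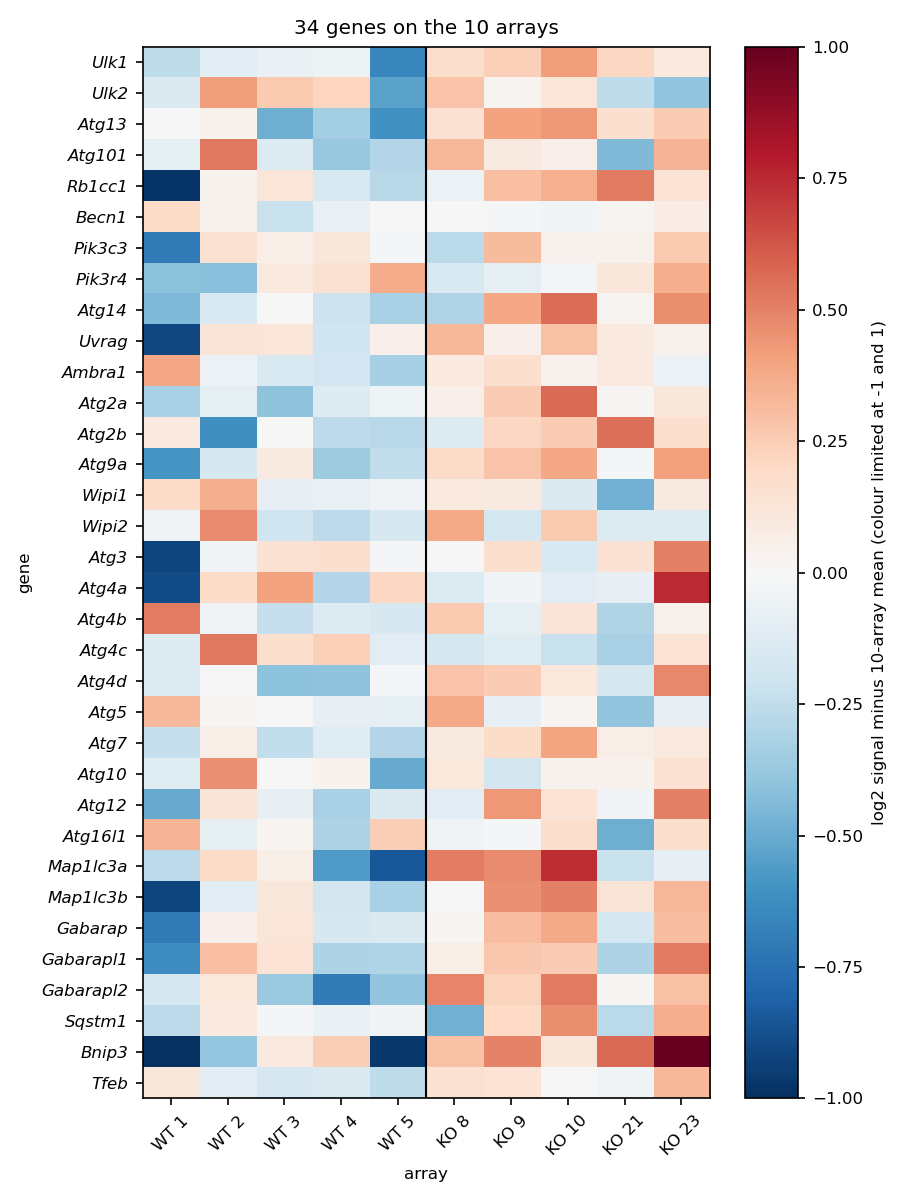
Log2 signal of each of the 34 genes (rows) on each array (columns), relative to the mean of the 10 arrays for that gene, in red above and blue below that mean. WT 1 and WT 5 are mostly blue, KO 10 and KO 23 mostly red, and KO 21 is mixed, matching their averages of -0.30, -0.22, 0.21, 0.24 and -0.04.

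Probe sets beyond the brightest gave further readings on the same arrays, so they cannot test effects that an array has on all its probe sets. The 34 genes had 78 probe sets in all, and 44 others besides those used. Of these, 35 had the same sign as the probe set that stood for the gene, and all 16 with a mean log2 signal of at least 6 did. Differences near 0 counted as the same sign, such as 0.01 against 0.62 for Gabarapl2 and 0.05 against 0.33 for Atg7. No such share over all genes is given here for comparison. Adjusted over all probe sets, 0 of the 44 passed the limma threshold. Of the 34 genes 11 had 1 probe set, Bnip3 and Atg9a among them.

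Other genes of the pathway were read from a list of 69, chosen with earlier results of these data known, of which 67 were measured. In limma 2 of them were called higher and 0 lower, shares near those of all genes. Their median difference was 0.13, against -0.01 over all genes, and 51 of 67 (76.1%) were positive, against 47.6%. At an unadjusted limma p under 0.05, 13 (19.4%) were higher and 0 lower, against 7.33% and 5.65% of all genes. Tollip, encoding an adaptor that links ubiquitin to LC3, rose from 8.80 ± 0.25 to 9.44 ± 0.08 (log2, mean ± SD, n = 5 each). Its KO arrays read 9.36 to 9.57 and its WT arrays 8.37 to 8.98, with no overlap. The difference was 0.64 (SE 0.14, limma adjusted p = 0.0285). Snap29, encoding a fusion protein of autophagosomes and lysosomes, rose from 6.64 ± 0.30 to 7.41 ± 0.26, by 0.77 (SE 0.18, limma adjusted p = 0.0360), with KO 21 at 6.99 below WT 2 at 7.11. Epg5, encoding a tether for the same fusion, and Calcoco1, encoding a cargo receptor, differed by 0.68 and 0.83 and did not pass (limma adjusted p = 0.0773 and 0.0970).

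Both calls were lost when some single arrays were left out. Tollip did not pass without WT 3, WT 5, KO 9, KO 10, KO 21 or KO 23, with limma adjusted p from 0.0507 to 0.101 and differences from 0.61 to 0.67. Snap29 did not pass without WT 1, WT 3, WT 4, WT 5, KO 8, KO 9, KO 10 or KO 23, with limma adjusted p from 0.0585 to 0.115 and differences from 0.69 to 0.78. Adjusted over all probe sets neither passed (0.0510 for Tollip and 0.0622 for Snap29), nor without WT 1, WT 2 and KO 8 together (0.0537 and 0.0538), and Snap29 did not with arrays centred (0.0610). With the array number as covariate their differences were 0.32 and 0.41 (limma adjusted p = 0.845 for each). By group, the cargo receptors had a median of 0.40 with 10 of 10 positive, and the genes for fusion with the lysosome 0.18 with 12 of 13 positive. The remaining medians were 0.14 for mitophagy genes, 0.10 for nutrient sensing around mTOR and AMPK, 0.06 for further early machinery and 0.02 for transcription factors.

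Since Bnip3 is a hypoxia target, 21 measured genes of the hypoxia response were set beside it. The list was chosen with earlier results of these data known, so its counts are a description and not a test. In limma 6 of the 21 rose and 0 fell, against 2.30% and 0.346% of all genes. The median difference of the 21 was 0.49, with 19 of 21 positive. Egln3, encoding an oxygen-sensing hydroxylase, rose from 4.80 ± 0.74 to 6.27 ± 0.39 and the glycolytic gene Aldoc from 5.34 ± 0.61 to 6.58 ± 0.21 (log2, mean ± SD, n = 5 each). Hk2, encoding a hexokinase, rose by 0.90, Ankrd37 by 0.83, Pfkfb4 by 0.80 and Fam162a by 0.89. In each of these 6 (28.6% of the list, against 3.36% of all genes) the lowest KO array exceeded the highest WT array. This rests on the same values as the limma calls and is no separate test. The other 15 did not pass and ran from -0.40 for Car9 to 0.78 for Ndrg1. Vegfa, at -0.18 (95% interval -0.70 to 0.35), and Car9 (-1.14 to 0.33) were the 2 negative ones. The smallest positive differences were 0.02 for P4ha2, 0.06 for Pfkfb3, 0.07 for P4ha1 and 0.15 for Ldha. The genes named among these 15 were singled out after their values were seen. The count was 2 without KO 9, 4 without each of WT 2, WT 4, KO 10 and KO 23, and 5 or 6 without each other array. It was 3 without WT 1, WT 2 and KO 8 together (Ankrd37, Egln3 and Fam162a did not pass) and 0 with the array number as covariate. Among genes with a mean of at least 6 it was 2, Hk2 and Fam162a. Ankrd37, Egln3, Aldoc and Pfkfb4 were dimmer and were removed by that filter. Fam162a differed by 0.48 with the mean of its probe sets (limma adjusted p = 0.238) and by 0.58 with array weights (0.0582), and did not pass with arrays centred (0.0539) or adjusted over all probe sets (0.0720). It also lost its call without 7 single arrays (WT 1, WT 2, WT 5, KO 8, KO 9, KO 21 and KO 23; limma adjusted p from 0.0635 to 0.0980) and Egln3 without 4 (WT 2, WT 5, KO 9 and KO 23; 0.0516 to 0.0760). Aldoc lost it without WT 4 or KO 9 (0.0509 and 0.0681) and Pfkfb4 without KO 9 or KO 10 (0.0582 and 0.0560). Ankrd37 lost it without WT 4 (0.0530) and Hk2 without KO 10 (0.0503). The part of hypoxia in the Bnip3 values was not tested.

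Genes of keratinocyte differentiation moved much further than the autophagy genes on the same arrays. The 6 suprabasal markers Krt1, Krt10, Ivl, Lor, Flg and Tgm1 all passed in limma, with differences from 1.13 for Tgm1 to 2.95 for Lor. This list too was chosen with earlier results of these data known. Krt1 did not pass without WT 2, KO 9 or KO 21 (limma adjusted p from 0.0502 to 0.0679), or without WT 1, WT 2 and KO 8 together (0.129). With the array number as covariate none of the 6 passed in limma, nor did any other gene of the 18193, with differences from 1.01 for Flg to 3.05 for Krt10. The signals of the 6 markers, summed before taking log2, ran from 11.29 to 12.31 in WT and from 13.27 to 13.78 in KO. Relative to the mean of the 10 arrays, these 6 genes averaged -1.25, -0.99, -0.46, -1.39 and -1.0 on WT 1 to WT 5 and 0.81, 1.33, 1.04, 1.08 and 0.84 on KO 8, 9, 10, 21 and 23, to be set beside the averages of the 34 genes given above. WT 1, WT 4 and WT 5 were the 3 lowest arrays on both, but other arrays ranked differently. WT 2, at -0.99 on the suprabasal genes beside WT 5 at -1.0, was the highest WT array on the 34 genes, at 0.06. KO 21 averaged 1.08 on the suprabasal genes and -0.04 on the 34 genes. KO 23, the highest array on the 34 genes at 0.24, averaged 0.84 on the suprabasal genes. The part of differentiation in the autophagy values was not tested.

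**Figure D4:**
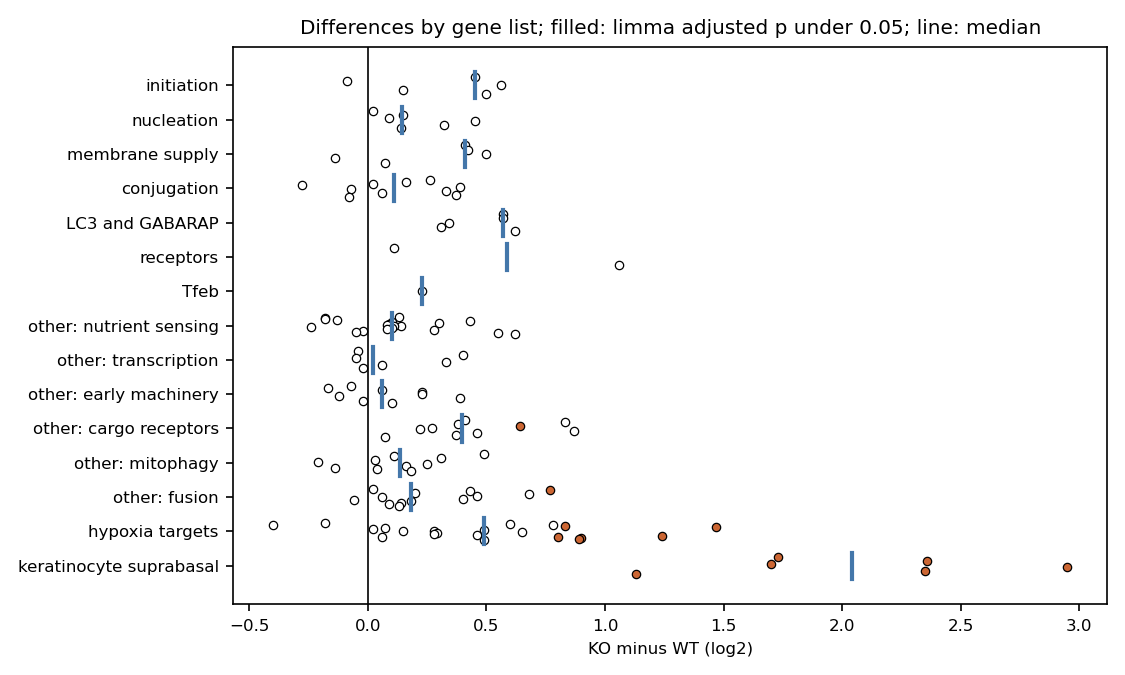
Difference KO minus WT (log2, horizontal axis) of single genes, grouped by the steps of autophagy, the other pathway genes, hypoxia targets and suprabasal keratinocyte markers, with the median of each group as a blue line. Filled points passed limma at an adjusted p under 0.05: 0 of the 34 autophagy genes, 2 of 67 other pathway genes, 6 of 21 hypoxia targets and 6 of 6 suprabasal markers.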

How the data were processed

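Total RNA of primary mouse keratinocytes was hybridised, 1 sample an array, to Affymetrix mouse arrays, 10 arrays in all, per the labels. The deposited values are log2 expression per probe set, made by the authors with RMA per the submitters' processing notes, whose version is not given in the sources used here. RMA brings all arrays to a common distribution and compresses differences near background, so differences of dim genes are understated. The values, from 1.13 to 14.92, were used as deposited. Of 45101 probe sets, 34945 were annotated to 1 gene in GEO's platform table, 932 to several and 9160 to none, and 64 were controls. Symbols were updated through the gene identifier for 34741. The brightest probe set over the 10 arrays stood for each of 18193 genes.

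KO minus WT was fitted over all genes with limma 3.58.1 in R 4.3.3 (lmFit, eBayes, two-sided, Benjamini-Hochberg, threshold 0.05), and the steps were tested on simulated data. SE is the moderated standard error, and intervals are limma's at 95%. The number of arrays limits the precision. The 35 genes and the other lists were chosen with earlier results of these data known.

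Values on every array are given for Bnip3, Sqstm1, Ulk1, Tfeb, the LC3 and GABARAP genes and the 6 of the 35 with the smallest p. From the other pathway and hypoxia lists, the called genes and the 4 with the smallest p are named, and from each marker list the brightest gene and the called ones. Alternatives changed the probe set rule, the genes adjusted over, a filter at a mean of 6, array centring, the variance model, array weights, a covariate and the arrays used. Promoter windows came from RefSeq on GRCm38.p6. No protein sequences were used.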

Additional observations from a re-analysis of the deposited data

Results flagged for a closer look

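Among 110 groups of 5 arrays checked, 2 for each gene named by the rule, 9 held an array whose gap to its nearest neighbour took up over 0.71 of the group's range, where chance gives about 1 in 20. The 34 autophagy genes held 5 of the 9 and 68 of the 110 groups. Of the 9, 6 were array WT 1. On WT 1, Pik3c3 read 6.46 with the next lowest WT array at 7.16, Atg3 7.86 with the next at 8.74, Tollip 8.37 with the next at 8.82, and Epg5 6.03 with the next at 6.67 (log2 signal). On the same array, Atg4b at 8.40 and Atg5 at 7.15 were the highest, with the nearest WT arrays at 7.85 and 6.84. On KO 23, Atg4a at 5.45 and Ankrd37 at 6.77 stood above the nearest KO arrays, at 4.68 and 6.19. On WT 4, Ivl at 7.99 stood below the nearest WT array at 8.81.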

How the results depend on the processing

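No paired analysis was possible because the groups share no replicate number. The median difference of the 34 genes was positive under every alternative run (0.17 to 0.32), and limma called 0 lower under any of them (unadjusted p under 0.05 in 0 or 1 gene). With the mean of all probe sets 1 was called higher (Atg13), against 2.35% of all genes. With array weights 6 were (Atg13, Gabarapl2, Atg2a, Atg4d, Atg9a, Map1lc3b), against 4.82%. Without WT 1, WT 2 and KO 8 together 2 were (Atg13, Gabarapl2), against 2.03%. Without single arrays 0 to 1 were, against 1.45% to 2.30%. Other pathway genes called higher numbered 0 adjusted over all probe sets (1.82% of all genes), 1 with arrays centred (2.14%) and 7 with array weights (4.82%). They numbered 0 without WT 1, WT 2 and KO 8 together, 0 with the array number as covariate and 0 to 2 without single arrays. Over all genes, 877 were higher and 561 lower with array weights, and 0 and 0 with the covariate. The lower count was 30 adjusted over all probe sets and 40 with arrays centred. Without single arrays 264 to 419 were higher and 13 to 107 lower. The cause of these shifts was not tested.

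The sign of a named gene's difference turned in the following cases, in genes not called. With the covariate the differences were -0.20 for Pik3c3, -0.27 for Pik3r4, -0.17 for Uvrag, -0.04 for Atg2a, -0.02 for Atg3, -0.07 for Atg4a, -0.17 for Gabarap, -0.29 for Sqstm1, 0.00 for Krt5 and -1.40 for the melanocyte gene Tyrp1. With array weights they were -0.07 for Pik3r4, 0.00 for Atg4a, -0.02 for Atg10 and 0.07 for Atg16l1. Becn1 was at -0.01 with the mean of probe sets and Pik3r4 at -0.11 without the 3 arrays. Without single arrays, the ranges were -0.23 to 0.00 for Ulk2, -0.03 to 0.07 for Becn1, 0.00 to 0.24 for Pik3c3, -0.01 to 0.19 for Pik3r4, -0.01 to 0.20 for Wipi2, -0.05 to 0.28 for Atg4a, -0.05 to 0.15 for Atg4b, -0.17 to 0.02 for Atg5, -0.06 to 0.18 for Atg10, -0.17 to 0.03 for Atg16l1 and -0.77 to 0.32 for the fibroblast gene Col1a1.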

Other observations

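The cargo receptor genes outside the 34 held further differences that did not pass the limma threshold, in genes chosen after their values were seen. Retreg1, encoding a receptor for parts of the endoplasmic reticulum, read 6.93 ± 0.63 in WT and 7.80 ± 0.34 in KO (log2, mean ± SD, n = 5 each; limma adjusted p = 0.153). Tex264, encoding another such receptor, differed by 0.46, and the p62 relative Nbr1 and the ubiquitin receptor Tax1bp1 by 0.41 and 0.38. Plekhm1, encoding a lysosomal fusion adaptor, differed by 0.46 with no overlap between the groups (limma adjusted p = 0.155). Pink1, the kinase gene of the mitophagy route that does not use BNIP3, read 8.33 ± 0.45 and 8.81 ± 0.27, a difference of 0.49 with a limma adjusted p of 0.352. Deptor, encoding an inhibitor of mTOR, differed by 0.43 with a limma adjusted p of 0.248.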
